A study of Mus musculus with 10 samples.

Results

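The colony-stimulating factors and their receptors were followed as a set of 8 named genes: the ligands Csf1, Il34, Csf2 and Csf3 and the receptor genes Csf1r, Csf2ra, Csf2rb and Flt3. They were chosen by name from the 31053 genes of the count tables, not by their values. Of the 8 genes, 7 had at least 1 UMI (unique molecular identifier, a counted RNA molecule) in a kept cell, as did 27391 genes in all, and Csf2 had none.

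Tumors grew from E0771 cells, a mouse mammary carcinoma line, placed in the fourth mammary fat pad of C57BL/6 females aged 16 weeks, and were taken at day 21. EC-AGO1-KO (KO) mice carried AGO1 flox/flox alleles and VE-Cadherin-Cre (Cdh5-cre), a driver active in endothelial cells, while their WT littermates served as controls. The deletion was in the host, so the injected tumor cells were the same line in both groups. The 10 droplet libraries held 5 WT and 5 KO samples. Batch 1 had 1 library of each group, and batch 2 had WT 1, WT 3, WT 4, WT 5, KO 1, KO 2+3, KO 4 and KO 5+6, where KO 2+3 and KO 5+6 each pooled 2 tumors.

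CSF-1 and IL-34 are separate proteins that bind the same receptor, CSF1R, a tyrosine kinase on which macrophages depend for survival and growth. GM-CSF, from Csf2, binds the alpha chain from Csf2ra paired with the common beta chain from Csf2rb, and the beta chain starts JAK2 and STAT5 signalling. G-CSF, from Csf3, drives neutrophil production, and FLT3 is the receptor through which FLT3 ligand sustains dendritic cells. In mammary tumors, CSF-1 made by tumor cells is known for drawing and maintaining macrophages.

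The promoters of 3 members, the 250 bases before the start of the gene in RefSeq, are printed to show the start regions of 1 ligand and 2 receptors whose levels follow. A window was used for these 3 of the 8 genes. All lie on the minus strand of GRCm38.p6 and are written 5′ to 3′ along the gene. Csf1 (chr3:107760470-107760719), Csf2ra (chr19:61228419-61228668) and Flt3 (chr5:147400490-147400739) were searched on both strands for the PU-box core GAGGAA, bound by PU.1, for an NF-kB-type motif and for an interferon-response-type motif. Capitals mark the matches.
Csf1: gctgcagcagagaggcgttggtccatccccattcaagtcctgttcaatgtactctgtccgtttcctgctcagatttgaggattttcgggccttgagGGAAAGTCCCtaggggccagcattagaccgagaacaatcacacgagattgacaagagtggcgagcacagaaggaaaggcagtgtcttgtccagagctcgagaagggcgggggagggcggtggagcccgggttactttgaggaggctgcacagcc
Csf2ra: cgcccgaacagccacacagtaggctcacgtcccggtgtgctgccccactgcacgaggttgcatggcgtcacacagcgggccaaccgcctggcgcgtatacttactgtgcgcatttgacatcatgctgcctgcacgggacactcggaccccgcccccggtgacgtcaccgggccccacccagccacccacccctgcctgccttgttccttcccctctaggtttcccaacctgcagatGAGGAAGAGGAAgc
Flt3: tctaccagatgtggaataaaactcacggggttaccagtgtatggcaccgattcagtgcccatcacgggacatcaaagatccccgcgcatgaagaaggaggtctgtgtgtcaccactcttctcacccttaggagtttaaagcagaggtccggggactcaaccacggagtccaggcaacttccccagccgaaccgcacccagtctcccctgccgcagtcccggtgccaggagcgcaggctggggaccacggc
The Csf1 window held 1 NF-kB-type match, on the strand opposite to the gene, 154 to 145 bases before the start. Of 32851 promoter windows of the same length, 464 (1.41%) held that motif. The Csf2ra window held a pair of adjoining PU-box matches that do not overlap, 14 to 9 and 8 to 3 bases before the RefSeq start, a motif present in 7639 windows (23.3%). The GENCODE gene model of Csf2ra ends at base 61228429 and so reaches into this window as far as these matches. The Flt3 window held none of the 3 motifs, and no window of the 3 held the interferon-type motif, which 978 windows (2.98%) held. A match is a run of letters, and binding was not measured.

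Il34 lies on chromosome 8 (bases 110741829 to 110805924, GRCm38), Csf2 on chromosome 11 (54247271 to 54249667), Csf3 on chromosome 11 (98701263 to 98703629) and Csf2rb on chromosome 15 (78325752 to 78353847). The near-identical gene Csf2rb2 lies beside Csf2rb on chromosome 15 (78282507 to 78305721), so the split of reads between this pair of genes is uncertain.

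Kept cells numbered 65298, with 8323896 to 10591577 UMIs per library over all barcodes. The median cell had 4049 (WT) and 3862 (KO) UMIs in batch 1 and 595 to 1142 in batch 2. Of the cells, 55717 were tumor- or mesenchyme-like, 2222 myeloid-like, 1366 T-like, 579 dendritic-like (209 migratory and 370 type 1), 572 fibroblast-like, 382 B-like, 280 pericyte-like, 201 endothelial-like and 139 epithelial-like, and 3840 were left unnamed. Batch 1 gave 704 of the myeloid-like cells and 20 of the fibroblast-like cells. The 8 genes took no part in the clustering. Of 64765 distinct barcodes of kept cells, 532 occurred in more than 1 library, at most 28 for any pair. Ago1, the deleted gene, had 0 UMIs in the endothelial-like cells of every library, WT included, so its loss could not be checked at this depth.

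A level below is given in CPM, the UMIs of a gene per 1000000 UMIs of the same cells, with Actb left out because it took 8.77% to 17.0% of the UMIs in batch 2 libraries against 1.99% and 2.27% in batch 1. Levels are not compared between genes. Differences between cell classes are described without a test. Free RNA is the RNA in barcodes with at most 50 UMIs, which are mostly empty droplets, and tumor RNA in other classes was followed by Pvt1, a transcript abundant in the tumor cells.

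Csf1, the main macrophage growth factor, came mostly from the tumor- or mesenchyme-like cells. They held 2757 of its 2998 UMIs, or 92.0% (95% exact interval 90.9 to 92.9), against 87.7% of all UMIs. In batch 1 the Csf1 level in these cells was 80.6 CPM in the WT library and 88.1 CPM in the KO library. Batch 2 gave 29.5, 33.0, 56.6 and 36.9 CPM in WT 1, WT 3, WT 4 and WT 5, and 47.3, 57.4, 37.1 and 46.8 CPM for KO 1, KO 2+3, KO 4 and KO 5+6. Both batch 1 libraries lay above all 8 of batch 2, and within batch 2 the groups overlapped, with WT 4 above 3 of the 4 KO libraries.

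Fibroblast-like cells carried Csf1 at a high level in batch 1 only. There the level was 336 CPM in WT (25 UMIs in 11 cells) and 304 CPM in KO (21 UMIs in 9 cells), or 321 CPM together, against 84.0 CPM in the tumor- or mesenchyme-like cells of the same batch. In batch 2 fibroblast-like Csf1 was at 0, 36.5, 0 and 63.4 CPM in the WT libraries and 35.5, 31.4, 57.5 and 26.2 CPM in the KO libraries, in the order above. The 11 UMIs behind these 8 values gave 35.0 CPM together, near the 26.0 CPM of free RNA in that batch. The 2 batches thus did not overlap in fibroblast-like Csf1, and the batch 1 values rest on 20 cells. Pvt1 in fibroblast-like cells was at 1.81% of its tumor level in batch 1 and at 46.5% in batch 2.

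Over the other classes Csf1 was low. Its median over libraries was 10.1 CPM in T-like, 4.58 CPM in B-like and 0 in myeloid-like, endothelial-like, pericyte-like and both dendritic-like classes. By median over libraries, tumor- or mesenchyme-like cells (47.1 CPM, range 29.5 to 88.1) stood above fibroblast-like cells (35.5 CPM, range 0 to 336). These neighbors overlapped, and both batch 1 libraries had the reverse order. There fibroblast-like cells were at 336 CPM against 80.6 CPM in WT, and at 304 CPM (9 cells) against 88.1 CPM in KO. Free RNA carried 16.3 to 38.7 CPM of Csf1, and the medians of the T-like, B-like and remaining classes named above lay below it. T-like cells of batch 1 were at 24.2 CPM in WT (2 UMIs) and 23.7 CPM in KO (3 UMIs). Free RNA of those libraries had 16.3 and 20.5 CPM.

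Il34, the second CSF1R ligand, was highest by library median in pericyte-like, tumor- or mesenchyme-like and fibroblast-like cells among the named classes. Tumor- or mesenchyme-like cells held 6893 of its 7370 UMIs, or 93.5% (95% exact interval 92.9 to 94.1), against 87.7% of all UMIs. Its level there was 105 CPM in the WT and 103 CPM in the KO library of batch 1. The batch 2 levels were 210, 131, 108 and 113 CPM in the WT libraries and 131, 112, 148 and 103 CPM in the KO libraries. WT 1 was the high library, and the other 9 spanned 103 to 148 CPM with both groups mixed.

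Pericyte-like cells, the mural cells around small vessels, had the highest Il34 level of the named classes. In the 8 batch 2 libraries it was 409, 421, 92.9 and 334 CPM (WT) and 355, 358, 303 and 220 CPM (KO). All but WT 4 lay above every tumor- or mesenchyme-like value. The class rests on 48 Il34 UMIs in batch 2, 317 CPM together. Its Pvt1 was at 50.5% of the tumor level, and tumor RNA in that proportion would carry 67.6 CPM of Il34. After subtraction of the free RNA level, 250 CPM remained.

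In fibroblast-like cells Il34 was at 26.9 CPM in WT of batch 1, 148, 54.8, 42.9 and 79.3 CPM in the batch 2 WT libraries and 142, 188, 172 and 105 CPM in the batch 2 KO libraries. WT 1 lay among the 4 KO libraries of batch 2 and the other WT libraries lay below them. The KO library of batch 1, with 9 cells, gave 43.4 CPM and was left out. Too few UMIs passed the count limit for a test there, and without that limit the log2 difference was 0.77 (SE 0.56, adjusted p = 0.726, edgeR quasi-likelihood test with Benjamini-Hochberg adjustment). Free RNA carried 66.9 CPM of Il34 in batch 2, and 44.4 CPM remained in the fibroblast-like cells after its subtraction. Pvt1 there was at 46.5% of its tumor level, and tumor RNA in that proportion would carry 62.3 of the 111 CPM. In batch 1, with Pvt1 at 1.81%, Il34 was at 34.8 CPM against 26.0 CPM in free RNA. B-like cells of batch 2 had 99.7 CPM of Il34 (22 UMIs), with Pvt1 at 77.4%. Tumor RNA would then carry 103 CPM, and 32.8 CPM remained after subtraction of free RNA. The part of tumor RNA in these levels was not tested.

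In endothelial-like cells, the class that carries the deletion, Il34 had 7 UMIs, of which 4 were in KO 5+6, and Csf1 had 4 UMIs. Together the batch 2 libraries gave 77.3 CPM of Il34 against 66.9 CPM in free RNA, and 22.1 CPM of Csf1 against 26.0 CPM. In batch 1, with 13 such cells, Csf1 was at 40.6 CPM from 2 UMIs, both in KO, against 18.3 CPM in free RNA, and Il34 had 0 UMIs. At these counts a ligand level above free RNA could not be shown. Csf1r, Csf2ra and Flt3 had 0 UMIs in this class, which allows up to 21.4 CPM.

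**Figure D1:**
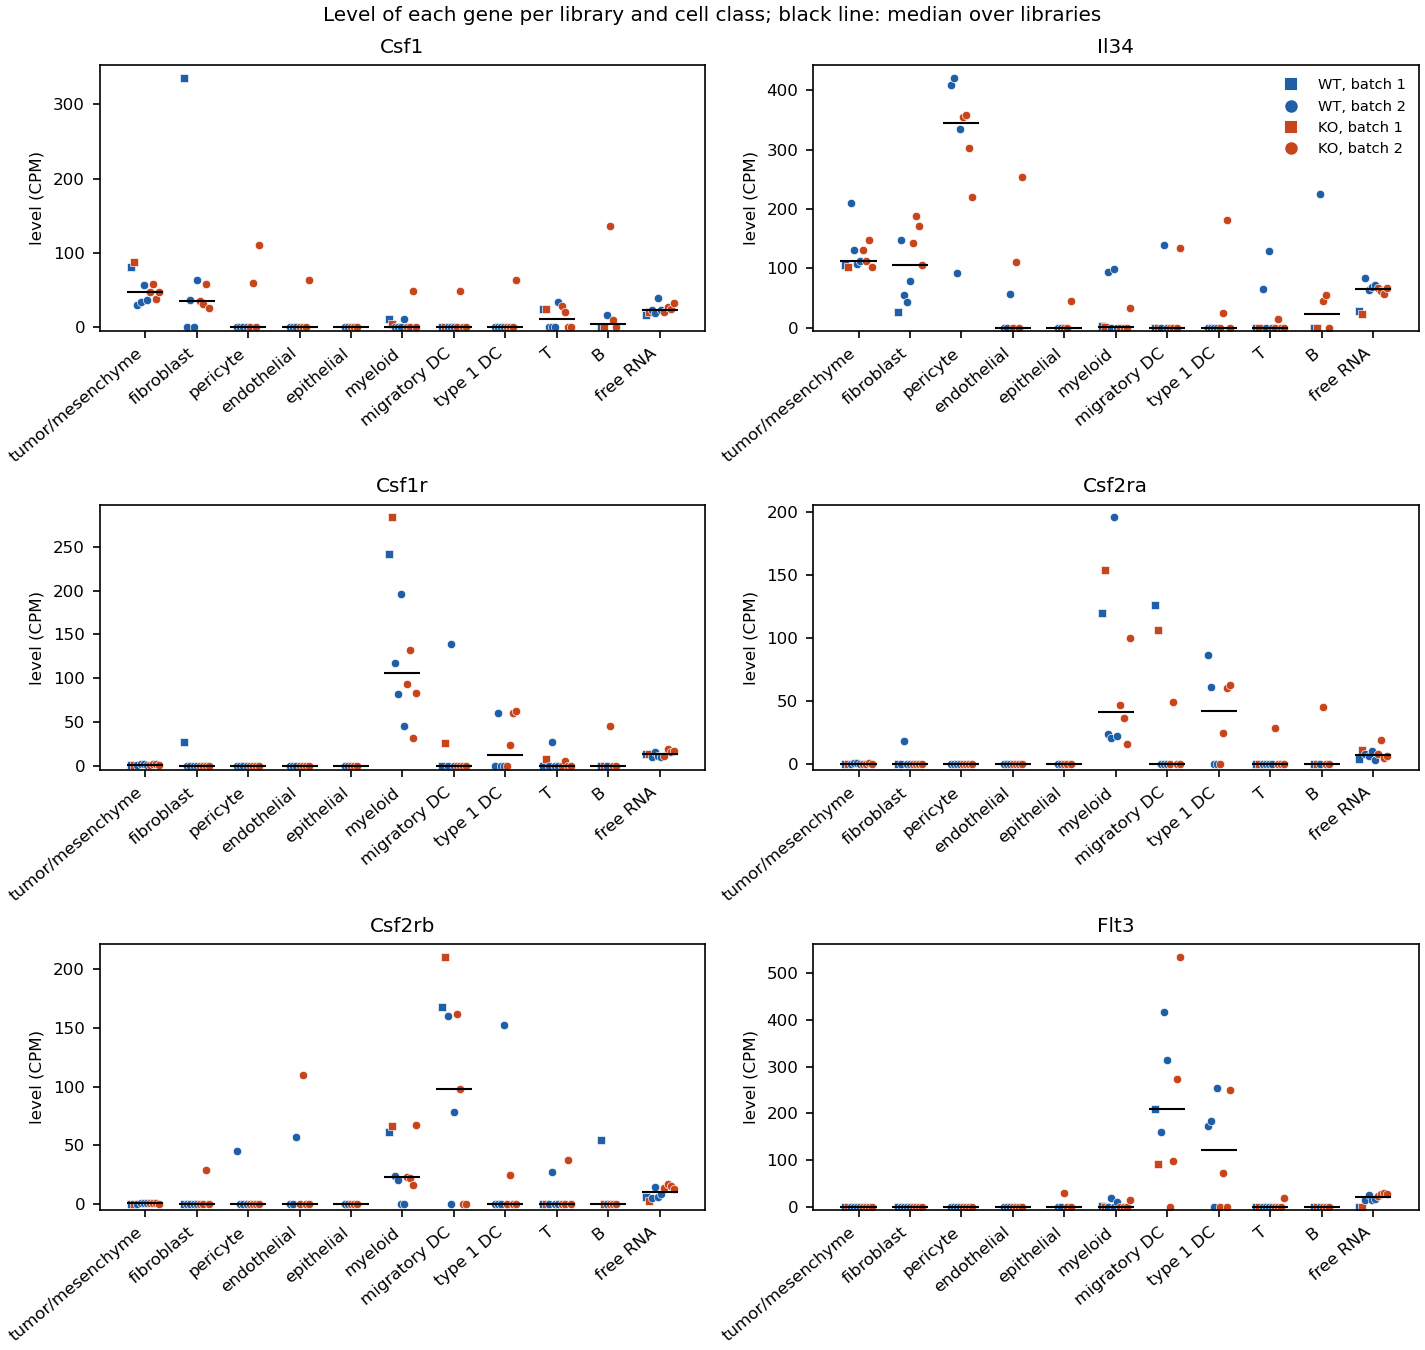
Level of 6 genes (CPM, linear axes that differ between panels) in each library by cell class and in free RNA. Squares are batch 1 and circles batch 2, blue is WT and orange KO, and black lines are medians over libraries with at least 10 cells of the class. Csf1 and Il34 sit in the tumor, fibroblast and, for Il34, pericyte columns, and Csf1r in the myeloid column, where batch 1 lies above all of batch 2.

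The tumor- or mesenchyme-like cells were not uniform for Csf1. In batch 2, 9 clusters of these cells were compared library by library with the remaining tumor- or mesenchyme-like cells. The cluster led by Gm44148, Usp18 and Herc6, of which Usp18 and Herc6 are interferon-induced genes, had 57.8 CPM of Csf1 together (library median 54.2, range 30.9 to 79.1) and was above the rest in 8 of 8 libraries. In WT 1 the margin was small, 30.9 against 29.4 CPM, and in KO 1 it was 68.1 against 44.8 CPM.

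The cluster with Ccl2, a monocyte chemoattractant, among its leading genes had 55.4 CPM (library median 54.3, range 39.7 to 83.4) and was above the rest in 7 of 8 libraries, KO 2+3 being the exception with 55.4 against 58.1 CPM. The cluster led by the ribosomal gene Rpl29 had the highest pooled Csf1 level, 63.3 CPM, and the widest range, 27.0 to 112, and was above the rest in 6 of 8 libraries. The clusters led by Fbxw4 (34.5 CPM) and Tle4 (29.4 CPM) and a pair led by Insig1, a sterol-regulated gene (33.9 and 29.1 CPM), lay lowest, each above the rest in 1 of 8 libraries.

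Il34 followed a different order over the same clusters. The cluster led by Lncpint had a library median of 151 CPM (range 107 to 221) and that led by Fbxw4 147 CPM (range 106 to 227), each above the rest in 7 of 8 libraries. The cluster led by Tle4 had a median of 153 CPM (range 70.1 to 208) and was above the rest in 4 of 8. The interferon-gene cluster had a median of 137 CPM of Il34 and was above the rest in 5 of 8 libraries. The cluster led by Insig1 and Tubb5 was lowest for Il34 too, with a median of 63.1 CPM, and below the rest in every one of the 8 libraries. Kitl, the ligand of the related receptor KIT, ranged from a pooled level of 109 CPM in that cluster to 263 CPM in the Lncpint cluster. These clusters were defined without the 8 genes and without the other genes of the pathway list, and they differ in depth and RNA content, whose part in the Csf1 and Il34 levels was not tested.

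**Figure D2:**
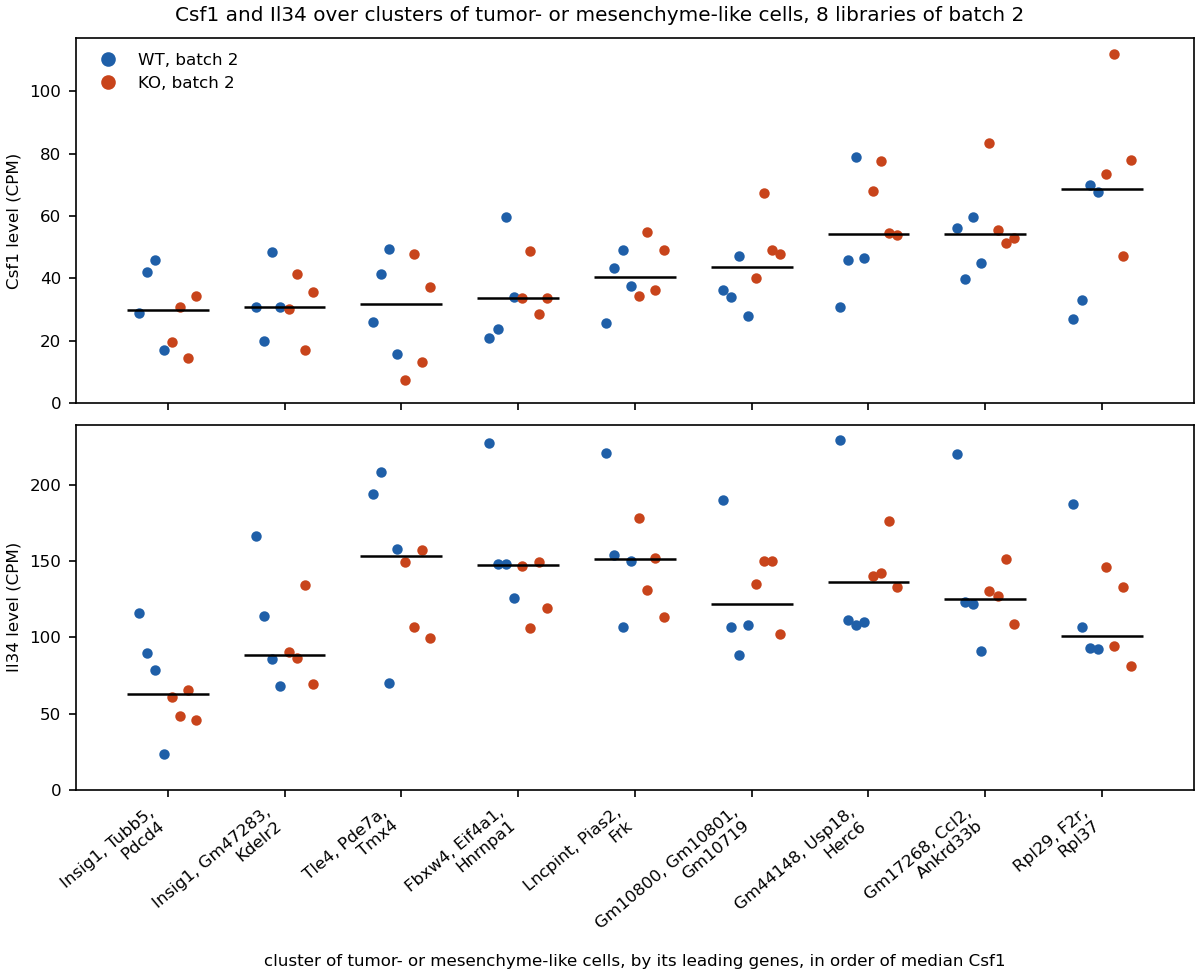
Csf1 (top) and Il34 (bottom) levels in CPM in 9 clusters of tumor- or mesenchyme-like cells, named by leading genes and ordered by median Csf1. Each point is 1 of the 8 batch 2 libraries, blue WT and orange KO, and black lines are medians, which run from 29.9 to 68.8 CPM for Csf1 and do not rise in the same order for Il34.

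Csf1r, the receptor of both ligands, was a gene of the myeloid-like class. These cells held 553 of its 655 UMIs, or 84.4% (95% exact interval 81.4 to 87.1), with 3.92% of all UMIs. Most of these UMIs came from batch 1, where the class held 509 of 521. In batch 2 it held 44 of 134 Csf1r UMIs, and tumor- or mesenchyme-like cells held 63. The Csf1r level in myeloid-like cells was 242 CPM in WT (217 UMIs) and 284 CPM in KO (292 UMIs) of batch 1. The batch 2 libraries had 118, 81.9, 196 and 45.0 CPM for WT and 92.9, 132, 32.2 and 83.7 CPM for KO, each from 2 to 18 UMIs.

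Both batch 1 libraries lay above all of batch 2, and the batch 2 groups overlapped, the lowest and the highest library being KO 4 and WT 4. The myeloid-like cells of batch 2 were 1 cluster led by Lyz2, Cadm1 and C5ar1, with a median of 349 UMIs per cell, and those of batch 1 another led by C1qb, C1qc and Ms4a7, with a median of 2564. Type 1 dendritic-like cells had 4 Csf1r UMIs and migratory dendritic-like cells 3, with medians of 12.1 and 0 CPM. The tumor- or mesenchyme-like cells were at 0.387 to 1.88 CPM, below the 9.59 to 18.9 CPM of free RNA in every library.

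Csf2ra, the GM-CSF receptor alpha chain, was found in the same class, which held 286 of its 337 UMIs, or 84.9% (95% exact interval 80.6 to 88.5). The class held 266 of 282 Csf2ra UMIs in batch 1 and 20 of 55 in batch 2. The Csf2ra level in myeloid-like cells was 120 CPM in WT and 154 CPM in KO of batch 1. Batch 2 had 23.6, 20.5, 196 and 22.5 CPM in WT and 46.4, 36.8, 16.1 and 100 CPM in KO, each from 1 to 6 UMIs. The 196 CPM of WT 4 rests on 2 UMIs, and the libraries of the groups were interleaved. Migratory dendritic-like cells of batch 1 also carried Csf2ra, at 126 CPM in WT (6 UMIs) and 106 CPM in KO (8 UMIs), while batch 2 gave 1 UMI, in KO 2+3.

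Csf2rb, the beta chain shared by the GM-CSF, IL-3 and IL-5 receptors, reached its highest level outside the myeloid-like class. Myeloid-like cells held 134 of its 206 UMIs, or 65.0% (95% exact interval 58.1 to 71.5). They held 123 of 155 Csf2rb UMIs in batch 1 and 11 of 51 in batch 2. Dendritic-like cells held 33, or 16.0% (95% exact interval 11.3 to 21.8), although they had 0.550% of all UMIs. In migratory dendritic-like cells the level was 168 CPM in WT and 211 CPM in KO of batch 1, against 61.2 and 66.2 CPM in the myeloid-like cells of the same libraries.

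The order of these 2 classes was the same in both batch 1 libraries. In batch 2 the migratory dendritic-like level came from 1 or 2 UMIs a library, at 160, 0 and 78.3 CPM in WT 1, WT 3 and WT 5 and 162, 98.0, 0 and 0 CPM in the KO libraries. The myeloid-like level of batch 2 was 23.6, 20.5, 0 and 0 CPM in WT and 23.2, 22.1, 16.1 and 67.0 CPM in KO, so the classes overlapped there. Endothelial-like cells gave 6 Csf2rb UMIs, 2 in each batch 1 library and 1 each in WT 5 and KO 2+3. Their batch 1 levels were 86.0 CPM in WT (7 cells) and 76.8 CPM in KO (6 cells). Myeloid-like cells of those libraries had 61.2 and 66.2 CPM, and free RNA of batch 1 had 4.26 CPM. In batch 2 the endothelial-like level was 22.1 CPM against 11.6 CPM in free RNA. These counts are too few to order the classes. The paralog Csf2rb2 had 5 UMIs in endothelial-like, 6 in dendritic-like and 31 in myeloid-like cells.

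Flt3 marked the dendritic-like classes, which held 51 of its 112 UMIs, or 45.5% (95% exact interval 36.1 to 55.2), against 0.550% of all UMIs. In migratory dendritic-like cells its level was 210 CPM in WT and 92.3 CPM in KO of batch 1. Its batch 2 levels were 160, 417 and 313 CPM in WT 1, WT 3 and WT 5 and 0, 98.0, 273 and 534 CPM in the KO libraries, while WT 4 had 1 UMI in 9 cells, under the limit of 10 cells. The highest and the lowest of these libraries were both KO. Each batch 2 level rests on at most 4 UMIs. Pvt1 in migratory dendritic-like cells was at 2.74% of its tumor level in batch 1 and at 64.2% in batch 2. Tumor RNA in the batch 2 proportion would carry 0.615 CPM of Flt3, 0.165 CPM of Csf2ra and 0.285 CPM of Csf2rb. The levels of these genes in these cells, batch 2 libraries together, were 228, 13.4 and 67.2 CPM. After subtraction of free RNA, 205, 5.12 and 55.6 CPM remained. The part of tumor RNA was set by this proportion alone and was not tested further.

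Type 1 dendritic-like cells, the cross-presenting subset, had Flt3 at 173, 183, 0 and 254 CPM in WT and 0, 72.5, 0 and 251 CPM in KO of batch 2, from 17 UMIs. The 2 dendritic-like classes overlapped in Flt3. Pvt1 in type 1 dendritic-like cells of batch 2 was at 28.0% of its tumor level. Tumor- or mesenchyme-like cells held 43 of the UMIs at no more than 1.61 CPM in any library. Myeloid-like cells held 6, with a median of 0.487 CPM. Free RNA of batch 2 had 23.7 CPM of Flt3, above the tumor- or mesenchyme-like level and below the pooled dendritic-like level of 158 CPM.

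The 2 other ligands were at the edge of detection. Csf2, which encodes GM-CSF, had 0 UMIs in kept cells, which allows up to 0.0487 CPM over all of them, and 8 UMIs in the other barcodes of all libraries. Csf3, which encodes G-CSF, had 4 UMIs in kept cells, all tumor- or mesenchyme-like, 1 in each batch 1 library and 2 in KO 2+3. That class held 87.7% of all UMIs. The receptors for GM-CSF and G-CSF were therefore measured here with almost no count of their ligands.

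**Figure D3:**
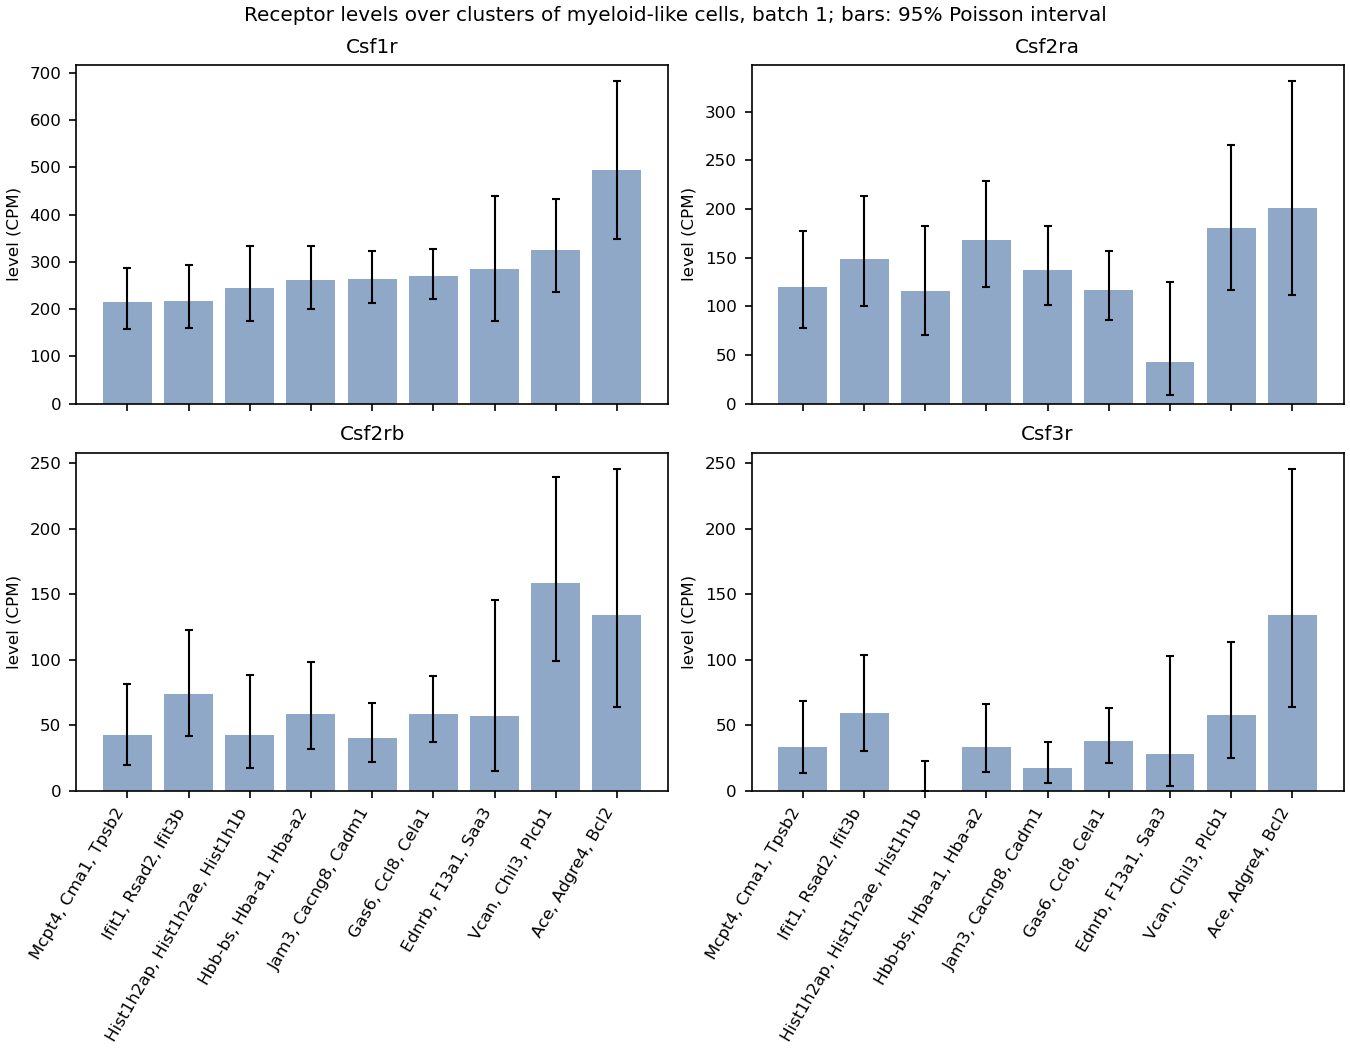
Levels of Csf1r, Csf2ra, Csf2rb and Csf3r (CPM, linear axes) in 9 of the 10 clusters of batch 1 myeloid-like cells, WT and KO libraries summed, with 95% Poisson intervals that cover counting error only. Csf1r is highest in the cluster led by Ace and Adgre4, and Csf2rb in that led by Vcan and Chil3.

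The myeloid-like cells of batch 1, deep enough to divide, fell into 10 clusters, of which 9, with 19 to 111 cells, are described. Csf1r was highest in the cluster led by Ace, Adgre4 and Bcl2, genes known from non-classical monocytes, at 495 CPM (Poisson 95% interval 349 to 682). Both libraries showed it, with 477 CPM in WT and 516 CPM in KO. The other 8 clusters described lay between 215 and 325 CPM, and the interval of the second, led by Vcan, Chil3 and Plcb1, was 237 to 434 CPM and overlapped that of the first.

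Csf2rb was highest in the Vcan and Chil3 cluster, whose leading genes are known from classical monocytes, at 159 CPM (interval 99.4 to 240; 171 in WT and 144 in KO). The Ace cluster had 134 CPM of Csf2rb (interval 64.2 to 246), and the other 7 had 40.1 to 74.4 CPM. Csf2ra ranged from 42.7 CPM, from 3 UMIs, to 201 CPM, with overlapping intervals in most clusters. Csf3r, the G-CSF receptor gene, was at 134 CPM in the Ace cluster, and had 0 UMIs in a cluster led by histone genes, where the interval reached 22.6 CPM. A cluster led by the mast cell genes Mcpt4, Cma1 and Tpsb2 had 28.7 CPM of Csf1 from 6 UMIs, all in WT, and 215 CPM of Csf1r. With 1 library per group, these cluster levels have no replicate check within batch 1.

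Genes whose levels followed those of the members were looked for over 75 sums of 1 library and 1 class, among 11009 genes, by Pearson's r of log2(CPM + 20). The sums share libraries, and batches differ in depth, so the values describe the tables only. For Csf1r the closest genes were the complement gene C1qa (r = 0.841), the Fc receptor gene Fcgr3 (0.832) and Adgre1, the F4/80 antigen gene (0.830). The markers that named the myeloid-like class include C1qa, Fcgr3 and Adgre1, so these r values are not independent of the classes. For Csf2ra the closest genes were Ms4a6c (0.819), Cfp (0.811) and Pirb (0.794). For Csf1 they were Adamts14 (0.657), Hspb8 (0.649) and Fkbp11 (0.625), and for Il34 Cacna1c (0.71), Cald1 (0.707) and Sox5 (0.704).

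Of the 35 other genes of the pathway, the ligand gene Kitl was highest in endothelial-like cells, at 651 CPM (91 UMIs), with 182 CPM in tumor- or mesenchyme-like cells. Csf3r was highest in myeloid-like cells, at 43.5 CPM (105 UMIs). The FLT3 ligand gene Flt3l had 138 UMIs in tumor- or mesenchyme-like cells, at 2.56 CPM, and Il3 had none. Tyrobp, an adaptor of myeloid receptors, was at 3059 CPM in myeloid-like and 1053 CPM in dendritic-like cells. Spi1, which encodes PU.1, was at 351 CPM in myeloid-like and 171 CPM in dendritic-like cells, and Irf8 and Zbtb46, transcription factors of dendritic cells, were at 254 and 145 CPM in dendritic-like cells.

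The study asked whether loss of AGO1 in the endothelium alters the tumor and its immune cells. For the 8 genes, UMIs were summed per library and class, and KO was compared with WT by edgeR's quasi-likelihood test with batch as a covariate and Benjamini-Hochberg adjustment over all genes tested. No member passed the threshold of 0.05 in any comparison where it could be tested. After a limit on low counts, 2 members were tested in tumor- or mesenchyme-like cells and 6 in whole libraries. In myeloid-like and in fibroblast-like cells 1 member was tested. No member could be tested in dendritic-like, T-like or endothelial-like cells, and pericyte-like, B-like and epithelial-like cells were not compared. Each library is a separate tumor or pool of 2.

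Of the ligands, Csf1 in tumor- or mesenchyme-like cells averaged 47.3 ± 21.4 CPM (SD, n = 5) over WT libraries and 55.3 ± 19.7 CPM (SD, n = 5) over KO libraries. Its log2 fold change (KO over WT) was 0.19 (SE 0.17, 95% interval -0.17 to 0.55, edgeR quasi-likelihood test, Benjamini-Hochberg adjusted p = 0.876). Il34 averaged 133 ± 43.9 CPM (SD, n = 5) over WT libraries and 120 ± 19.6 CPM (SD, n = 5) over KO libraries. Its log2 fold change was -0.20 (SE 0.16, 95% interval -0.54 to 0.14, edgeR adjusted p = 0.863). Within batch 2 alone the log2 fold changes were 0.22 for Csf1 and -0.23 for Il34. Single libraries moved these values. Il34 was at -0.00 without WT 1 and -0.13 without KO 5+6. Csf1 was at 0.37 without WT 4 (edgeR adjusted p = 0.704), 0.09 without WT 1 and 0.10 without KO 2+3. Without both pooled KO libraries Csf1 was at 0.06 and Il34 at -0.07. In these cells 0.00764% of 13090 genes were called, a single gene, the hemoglobin gene Hbb-bs (log2 fold change -4.18, SE 0.60, edgeR adjusted p = 0.0236), so the 0 calls among the 2 members tested are at the background share. The call was lost without WT 3, KO 1 or either batch 1 library. DESeq2 called none, and 790 genes had an unadjusted edgeR p under 0.05.

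In fibroblast-like cells Csf1 had a log2 fold change of 0.24 (SE 1.01, 95% interval -1.79 to 2.27, edgeR adjusted p = 0.987) over 5 WT and 4 KO libraries, the KO library of batch 1 having 9 cells and being left out. The batch term then fits the WT library of batch 1 by itself, so the contrast rests on batch 2, with 11 Csf1 UMIs. Csf1 passed the limit on low counts only with that WT library in. The interval is wide, and the sign turned without WT 1 (-0.12) or without KO 4 (-0.04), while the value was 1.06 without WT 5. Of 1831 genes tested in these cells, 0.109% were called, Ccl2 (log2 fold change 1.53, SE 0.32) and Gm17268 (1.51, SE 0.33), both at an edgeR adjusted p of 0.0199. Ccl2 encodes a chemokine that draws CCR2+ monocytes. Gm17268 and Ccl2 are also the first 2 leading genes of the tumor- or mesenchyme-like cluster with Ccl2 described above, and Pvt1 in the fibroblast-like cells of batch 2 was at 46.5% of the tumor level. The part of tumor RNA in these calls was not tested. No gene was called in batch 2 alone, or without WT 5, KO 2+3, KO 4 or the WT library of batch 1.

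Of the receptors, Csf1r in myeloid-like cells averaged 136 ± 81.1 CPM (SD, n = 5) over WT libraries and 125 ± 95.9 CPM (SD, n = 5) over KO libraries. Its fitted log2 fold change was 0.15 (SE 0.26, 95% interval -0.36 to 0.66, edgeR adjusted p = 0.996). The plain means and the fit differ in sign. With 1 library left out the fitted value ran from 0.04 (without KO 2+3) to 0.27 (without the KO library of batch 1), and it was 0.03 without both pooled KO libraries. The log2 fold change in batch 2 minus that in batch 1 was 0.14 (edgeR adjusted p = 1.00). In myeloid-like cells 0.0880% of 2274 genes were called, both lower in KO, the collagen gene Col1a1 (log2 fold change -3.02, SE 0.64, edgeR adjusted p = 0.0183) and the peroxiredoxin gene Prdx1 (-0.90, SE 0.20, edgeR adjusted p = 0.0354). No gene was called there without WT 1, WT 5, KO 2+3 or KO 4, and 8 were without either batch 1 library. DESeq2 called 0 genes in myeloid-like and in fibroblast-like cells. Col1a1 and Hbb-bs are known from fibroblasts and red cells, and the part of RNA from such cells in these calls was not tested.

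Csf2ra and Csf2rb did not pass the limit on low counts in myeloid-like cells. Fitted without it, their log2 fold changes were 0.35 (SE 0.35, edgeR adjusted p = 0.792) and 0.27 (SE 0.41, edgeR adjusted p = 0.908). In dendritic-like cells, where 0% of 895 genes were called by edgeR, 0 by DESeq2 and 31 had an unadjusted edgeR p under 0.05, no member passed the limit. Fitted without it, Flt3 had a log2 fold change of -0.79 (SE 0.48, edgeR adjusted p = 0.678) from 29 UMIs in WT and 22 in KO. At these counts a difference between WT and KO in the GM-CSF receptor chains or Flt3 was not detectable.

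**Figure D4:**
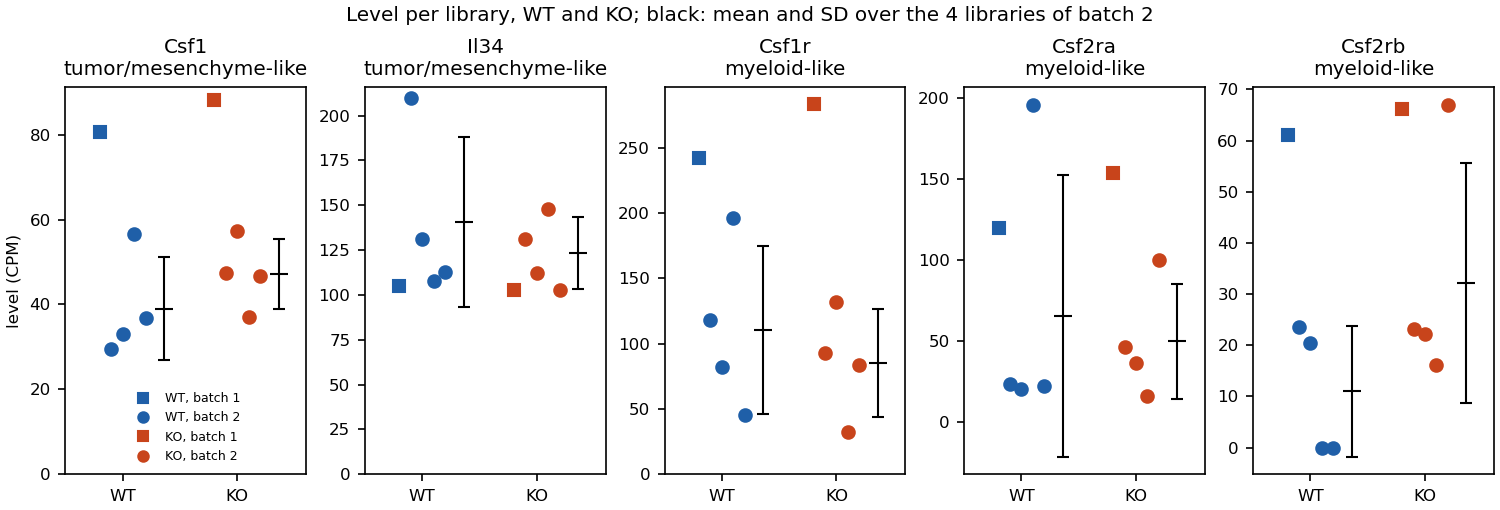
Levels in CPM per library (linear axes) of Csf1 and Il34 in tumor- or mesenchyme-like cells and of Csf1r, Csf2ra and Csf2rb in myeloid-like cells, WT in blue and KO in orange. Squares are batch 1 and circles batch 2, and black bars are the mean and SD of the 4 batch 2 libraries of each group, which overlap in every panel.

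In whole libraries, the sum over all kept cells, 6 members were tested and none called, as 0% of 14181 genes were called by edgeR, 2 by DESeq2, and 1313 had an unadjusted edgeR p under 0.05. In such sums, fewer cells of a type and less RNA per cell cannot be told apart. The log2 fold changes were 0.12 for Csf1, 0.38 for Csf1r, -0.26 for Il34, 0.47 for Csf2ra, 0.34 for Csf2rb and 0.12 for Flt3, with SE from 0.17 to 0.42. The sign for Flt3 turned without WT 4 (-0.16), without KO 5+6 (-0.11) and without both pooled libraries (-0.35). The highest of these, for Csf2ra, had a 95% interval of -0.16 to 1.11 (edgeR adjusted p = 0.655). Csf1r, Csf2ra and Csf2rb were higher in both batch 1 libraries than in any of batch 2, with Csf1r at 31.0 (WT) and 45.6 CPM (KO) against 1.96 to 5.74 CPM. Flt3 was not, at 1.80 (WT) and 1.38 CPM (KO) in batch 1 against 0.178 to 3.23 CPM in batch 2.

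**Figure D5:**
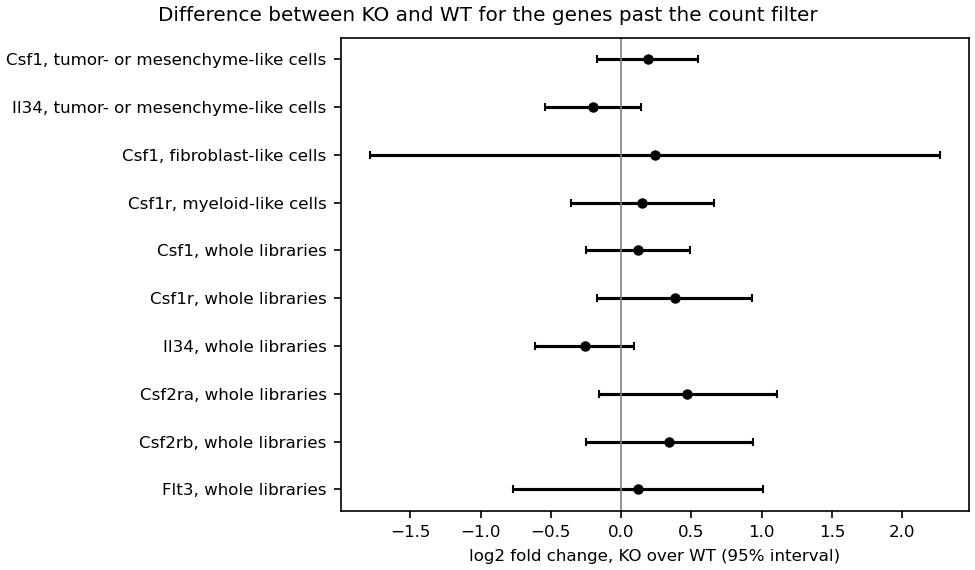
Log2 fold change of KO over WT (horizontal axis) with 95% intervals from edgeR for each member and class that passed the limit on low counts. Every interval spans 0, and that of Csf1 in fibroblast-like cells is the widest, from -1.79 to 2.27.

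No gene of the pathway list was called in either direction in any class compared. Of the 35 genes, 14 were tested in myeloid-like cells, with a median log2 fold change of 0.03 against -0.04 over all genes tested. The highest values were those of Ptpn6 (0.56, SE 0.29) and Grb2 (0.33, SE 0.19), which encode a phosphatase and an adaptor of cytokine receptors, and the lowest those of Id2 (-0.47, SE 0.21) and Cebpb (-0.25, SE 0.23), each at an edgeR adjusted p of 0.996. In tumor- or mesenchyme-like cells 23 were tested, with a median of -0.06 against 0.00, with Socs3 (0.45, SE 0.18, edgeR adjusted p = 0.820) and Inpp5d (0.34) highest and Socs2 (-0.37) among the lowest.

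In dendritic-like cells 6 pathway genes were tested, with a median of 0.26, and the extremes were Inpp5d (0.34), Tyrobp (0.33), Pim1 (0.25) and Jak2 (-0.28). In T-like cells, where 0% of 1559 genes were called by edgeR, 0 by DESeq2 and 64 had an unadjusted edgeR p under 0.05, 7 were tested, from Id2 (0.35) and Jak2 (0.33) to Grb2 (-0.03) and Stat5b (-0.05). In fibroblast-like cells 5 were tested, with Maf (0.39) and Pim1 (0.20) highest and Jak2 (0.00) and Kitl (-0.12) lowest. In endothelial-like cells, over 3 WT and 4 KO libraries of batch 2, 2 were tested, Kitl (0.55, SE 0.58) and Pim1 (-0.25, SE 0.40), and 0% of 222 genes were called by edgeR, 0 by DESeq2, with 24 at an unadjusted edgeR p under 0.05. In whole libraries 31 were tested, with a median of 0.32 against -0.00 over all genes and 25 of 31 above 0, from Il3ra (1.22, SE 0.58, edgeR adjusted p = 0.541) and Irf4 (1.18, SE 0.52) to Sdc1 (-0.15) and Sh2b3 (-0.30).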

How the data were processed

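Counts were deposited by the authors as raw UMIs of 31053 genes in every barcode, with no normalization and with empty droplets included. Per the submitters' processing notes, Cell Ranger 7.1.0 and mm10 were used. The SCTransform, integration and annotation of the study were not used here.

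A barcode was kept as a cell if it had 200 to 7000 genes and no more than 10% of its UMIs from mitochondrial genes. Cells were clustered (scanpy 1.11.5, leidenalg 0.10.2, 2000 variable genes, 30 principal components, 15 neighbors, Leiden resolution 1), first all cells and then those outside tumor- or mesenchyme-like clusters. A cluster was named when at least 3 markers were 2-fold higher and found in 2% of its cells. The tumor- or mesenchyme-like clusters are an exception, since each had 0 markers passing. They are the clusters of the first round that passed no marker list, so their name rests on no marker test. Clusters of the second round with 0 markers passing were left unnamed. The 8 genes, the pathway list, Actb and Ago1 stayed out of the clustering genes. Doublets were not removed. The classes are rebuilt and are not the authors' annotation.

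UMIs were summed per library and class with at least 10 cells and compared by edgeR 4.0.16 in R 4.3.3 (quasi-likelihood test, TMM, filterByExpr, batch as covariate, Benjamini-Hochberg adjustment, threshold 0.05), with DESeq2 1.42.0 as an alternative. Intervals on UMI shares and levels are at 95% and cover counting error only, and a count of 0 was read as up to 3. P-values measure the spread between these tumors. On data simulated for the comparison in tumor- or mesenchyme-like cells (13090 genes), 83.0% of genes changed by 1 and 93.0% of genes changed by 2 on the log2 scale were recovered, with 10 false calls. For myeloid-like cells (2274 genes) the shares were 82.0% and 90.0%, with 12 false calls. The simulated counts had 1 dispersion for all genes, no batch effect and 100 changed genes at each size. The shares therefore do not give how often a change in a member would be called in the real data.

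The members and lists, motifs included, were chosen with earlier results of these data known. The genes named were the 8 members, every called gene, the 2 largest rises and falls of the pathway list in each comparison, and the 3 genes closest to each member with at least 200 UMIs. A gene that this rule names and a myeloid-like cluster are not reported here. Leading genes of clusters, and pathway genes named for their class levels, were chosen after their values were seen.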

Additional observations from a re-analysis of the deposited data

Results flagged for a closer look

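Of 36 groups of 4 or 5 libraries tested for a library far from the others (Dixon's ratio), 9 held one. Chance gives about 1 in 20 only among libraries drawn alike. Most groups here set a batch 1 library beside batch 2 libraries of lower depth per cell, and groups shared libraries, so that rate does not apply. Of the 9 flagged libraries, 6 were batch 1 libraries in whole-library sums. Csf1r was at 31.0 CPM in the WT library of batch 1 against 1.96 to 3.68 CPM in the other WT libraries, and at 45.6 CPM in the KO library of batch 1 against 2.16 to 5.74 CPM. Csf2ra stood at 15.9 CPM in WT against 0.430 to 1.66 CPM and at 25.6 CPM in KO against 0.921 to 1.85 CPM. Csf2rb stood at 9.42 CPM in WT against 0.713 to 1.29 CPM and at 13.3 CPM in KO against 0.831 to 1.85 CPM. Batch 1 held 704 myeloid-like cells among its 2162 kept cells and batch 2 held 1518 among 63136. The part of these numbers in the levels was not tested.

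By class, Csf1 in fibroblast-like cells was at 336 CPM in the WT library of batch 1 (11 cells) against 0 to 63.4 CPM in the other WT libraries. Csf2ra in migratory dendritic-like cells was at 126 CPM in that library and at 0 in the other 3 WT libraries with 10 cells or more. Il34 in tumor- or mesenchyme-like cells was at 210 CPM in WT 1 against 105 to 131 CPM in the other WT libraries. Free RNA of WT 1 was also the highest for Il34, at 83.0 CPM against 23.2 to 71.2 CPM in the other 9 libraries.

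Csf2, with 0 UMIs in kept cells, had 7 UMIs in barcodes with at most 50 UMIs, all of them in KO libraries, 2 in KO 4 and 5 in KO 5+6, and 0 in those barcodes of WT libraries. A further Csf2 UMI lay in another barcode of WT 4. Only a higher count in KO was looked for. Csf3 lay the other way in the barcodes with at most 50 UMIs, with 4 UMIs in WT and 2 in KO libraries. The differences between the groups were not tested.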

How the results depend on the processing

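No member or pathway gene was called in the main analysis, while the counts of called genes moved with the settings. In myeloid-like cells the count of 2 became 0 with DESeq2, without the batch term, without the pooled KO libraries and at resolution 0.5 or 2, and likewise 0 with up to 20% mitochondrial UMIs, 1 with at least 500 genes and 14 without the limit on low counts. In tumor- or mesenchyme-like cells the count of 1 became 0 with DESeq2, without the batch term, in batch 2 alone, at resolution 0.5 or 2 and with at least 500 genes, and 41 without the limit on low counts. In fibroblast-like cells the count of 2 became 0 with DESeq2, without the batch term, in batch 2 alone and without the pooled KO libraries. From 0, endothelial-like cells went to 1 without the pooled KO libraries, dendritic-like cells to 1 at resolution 0.5 and to 1 with up to 20% mitochondrial UMIs, and whole libraries to 2 with DESeq2, 242 without the limit on low counts and 1 without the pooled KO libraries. Leaving out 1 library gave 0 to 8 calls in myeloid-like, 0 to 1 in tumor- or mesenchyme-like, 0 to 3 in fibroblast-like and 0 to 2 in endothelial-like cells and 0 to 1 in whole libraries. Mean levels moved by more than 1 SD in batch 1 alone, for Csf1 in tumor- or mesenchyme-like cells to 84.3 CPM from 51.3, for Csf1r in myeloid-like cells to 263 CPM from 131 and for Csf2rb in migratory dendritic-like cells to 190 CPM from 97.5, and the last to 199 CPM with at least 500 genes. Single values moved likewise in batch 1 alone, for Il34 in fibroblast-like cells to 26.9 CPM from 107, for Csf1 there to 336 CPM from 65.2, for Csf2ra in migratory dendritic-like cells to 116 CPM from 31.2 (122 CPM with at least 500 genes) and for Csf2rb in myeloid-like cells to 63.7 CPM from 30.0. The sign turned for Csf1 in fibroblast-like cells without WT 1 (-0.12) or KO 4 (-0.04), over a range of -0.12 to 1.06 with 1 library left out, and for Flt3 in whole libraries without WT 4 (-0.16) or KO 5+6 (-0.11), over a range of -0.16 to 0.29, and without both pooled KO libraries (-0.35). The cause was not tested. Numbers 1 and 4 occur in both groups, but deviations of same-numbered libraries correlated at -0.180 and -0.235 over 13090 genes, so they were not taken as pairs. With the replicate number as a block, the calls were 0 in myeloid-like, tumor- or mesenchyme-like and fibroblast-like cells, and Csf1 in whole libraries was at -0.04. Of the counts of called genes and the levels set as main results, 132 stayed within the limits used and 52 moved. Of the other single-gene values, 217 stayed, 5 moved and 6 changed sign. A log2 fold change was taken as staying if its sign held and it remained uncalled, whatever its shift in size. The dendritic-like and endothelial-like comparisons with at least 500 genes, the block in endothelial-like cells, Il34 in pericyte-like cells of batch 1 alone and Flt3 in type 1 dendritic-like cells in 4 settings gave no value. Depth per cell in batch 2 limits every receptor value there to a few UMIs.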

Other observations

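Barcodes outside the kept cells held a different mix of the 8 genes. In batch 2, barcodes with at most 50 UMIs carried the receptors at higher levels than the sum of kept cells did, with 13.9 against 2.80 CPM for Csf1r, 8.32 against 1.15 CPM for Csf2ra, 11.6 against 1.07 CPM for Csf2rb and 23.7 against 1.88 CPM for Flt3. The ligands lay the other way, with 26.0 against 41.6 CPM for Csf1 and 66.9 against 129 CPM for Il34. In batch 1 those barcodes lay below the kept cells for all 6 genes, with 13.6 against 37.9 CPM for Csf1r and 18.3 against 73.5 CPM for Csf1.

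Flt3 had 501 UMIs over all barcodes, of which 112 were in kept cells and 260 in barcodes with at most 50 UMIs. Per library the level in those barcodes was 0.817 CPM (WT) and 0 (KO) in batch 1. In batch 2 it was 14.6, 27.3, 15.3 and 17.8 CPM in WT 1, WT 3, WT 4 and WT 5 and 24.4, 28.3, 29.8 and 28.3 CPM in KO 1, KO 2+3, KO 4 and KO 5+6. WT 3 lay among the KO libraries and the other WT libraries below them. This difference was not tested.

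The 3840 cells left unnamed held Csf1 at a median of 48.1 CPM over 8 libraries (range 27.2 to 65.3), Il34 at 104 CPM (79.9 to 145) and Csf1r at 5.52 CPM (2.26 to 12.7), with Pvt1 at 92.3% of the tumor level.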
